A study of Mus musculus with 41 samples.

Results

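The subject of these data was a set of 34 interferon-stimulated genes (ISGs), chosen by gene symbol from a list of known ISGs, in bulk RNA-seq of mouse tibia. All 34 were found among the 43346 genes of the deposited count table, and all 34 were among the 19292 genes that passed the filter on low counts. The bones came from 41 female p16-INK-ATTAC mice on a C57BL/6 background, a line in which the p16Ink4a promoter drives a caspase that AP20187 (AP) activates, so that p16Ink4a-expressing cells can be removed. All groups carried the transgene. There were 12 young mice, 13 old mice given vehicle (old + vehicle) and 16 old mice given AP (old + AP). AP was given at 10 mg per kg for 4 months from an age of 20 months. By the study's methods young mice were 6 months old and old mice were sacrificed at 24 months, whereas the sample labels put the ages at 6 to 12 and 20 months. The young mice are labelled as vehicle, and no young mice given AP were analysed here, so that an effect of AP in young bone could not be compared. The tissue was the tibia diaphysis, centrifuged to remove marrow.

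Interferons are secreted proteins that bind cell-surface receptors and activate JAK kinases, which phosphorylate STAT proteins. Type I and III interferons act mainly through a complex with STAT2 and IRF9 that binds the interferon-stimulated response element, and interferon-gamma acts mainly at the gamma-activated site. The genes switched on in this way encode sensors of viral nucleic acid, enzymes that block viral replication, GTPases that attack intracellular pathogens, and feedback inhibitors. In bone, type I interferon is known as a brake on osteoclast formation, and in senescent cells cytosolic DNA can feed the same pathway.

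The response element shared by many ISGs is shown first, because it is the sequence that relates the members to one pathway. Promoter sequences of RefSeq (GRCm38.p6) spanned 250 bases before the transcription start and reached 300 bases in length. They were found for 25 of the 34 members, and not for Dhx58, Zbp1, Oas2, Mx1, Mx2, Usp18, Ifi27l2a, Parp14 and Rtp4. The letters GAAANNGAAA, on either strand, were present in the promoters of 15 of these 25 members and of 3.99% of all 27025 genes in the table (3.44% of its 32851 promoters). Because fewer than 80% of the members had a sequence, no share over the whole list can be read from this count. The shorter gamma-activated site, TTCNNNGAA on either strand, was present in 6 of the 25 members and in 9.55% of all genes (8.3% of promoters). Windows are given for 3 members that rose in old + AP mice (Oas1a, Oas3, Ifit1) and 4 that did not pass the test in any comparison (Isg15, Rsad2, Igtp, Bst2). Each reads 5′ to 3′ along the gene's own strand, and capitals mark the match nearest the start, with overlapping matches run together. A match on the opposite strand appears as TTTC repeats. All 7 lie before the RefSeq start, with the matches between 130 bases (Bst2) and 5 bases (Oas1a) upstream of it.
Oas1a, chr5:120907526-120907563, minus strand: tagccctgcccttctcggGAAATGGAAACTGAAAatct
Oas3, chr5:120777707-120777752, minus strand: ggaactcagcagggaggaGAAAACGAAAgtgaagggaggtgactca
Ifit1, chr19:34640786-34640831, plus strand: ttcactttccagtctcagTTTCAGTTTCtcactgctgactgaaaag
Isg15, chr4:156200857-156200914, minus strand: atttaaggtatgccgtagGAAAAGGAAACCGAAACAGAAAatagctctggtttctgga
Rsad2, chr12:26456545-26456590, minus strand: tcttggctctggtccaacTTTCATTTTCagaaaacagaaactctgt
Igtp, chr11:58199504-58199549, plus strand: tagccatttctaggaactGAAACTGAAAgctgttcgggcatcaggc
Bst2, chr8:71537569-71537620, minus strand: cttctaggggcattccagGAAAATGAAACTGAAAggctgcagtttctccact
The Isg15 window held 3 overlapping copies of the element, the Oas1a and Bst2 windows held 2 each, and the other 4 windows held 1. The Ifit1 promoter held 2 separate matches before the start, of which its window marks 1. Members with and without a called difference therefore both carried the element. Of the 5 members called in old + AP against young mice that had a promoter sequence, 3 held it, and of the 20 not called, 12 held it.

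Total counts per mouse ranged from 37028959 to 75942717. Levels are given as CPM, the counts of a gene relative to the library total after TMM scaling. Cdkn2a, the gene of p16Ink4a and the check of the model, had median levels of 0.587 CPM in young, 2.20 CPM in old + vehicle and 1.10 CPM in old + AP mice. It rose in old + vehicle over young mice by 2.22 on the log2 scale (SE 0.43, adjusted p = 0.000332, edgeR quasi-likelihood test), and its difference between old + AP and old + vehicle mice was -0.67 (SE 0.37, adjusted p = 0.265). The 6 osteocyte markers were all tested, and their summed level lay between 283 and 3411 CPM in all mice. Mice 18 and 19 of the old + AP group stood apart, with osteocyte sums of 283 and 289 CPM, whereas every other mouse was at 946 CPM or more. Markers of marrow cells remained in all bones, and the summed level of 10 neutrophil genes ran from 4931 to 34405 CPM. A gene was called when its Benjamini-Hochberg adjusted p was below 0.05 and its log2 fold change exceeded 0.5 in size. Each pair of comparisons shares a group of mice, so that the 3 are not independent of one another.

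Among members, levels per kilobase of gene length spanned a wide range. The most abundant were Ifi27l2a at 65.7 CPM per kb and Bst2, a membrane tether of budding virus, at 57.8 CPM per kb, followed by Isg15 at 30.3 CPM per kb. The least abundant were Ifi44 at 0.66 CPM per kb and Mx2 at 0.95 CPM per kb.

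With age alone, few ISGs passed the test. Between old + vehicle and young mice, 3 of the 34 members were called, all of them higher: Oas2, Oas1a and Zbp1. Over all genes tested, 9.06% were called in this comparison in either direction and 4.30% were called higher. The share of 3 of 34 is near the former and above the latter, on few genes. The median log2 fold change of the members was 0.079 against 0.0066 over all genes, and 21 of 34 were above 0. This median was 0.030 without mouse 23 and 0.12 without mouse 16. Zbp1 was not called with no filter on low counts (adjusted p = 0.0714, edgeR). The 3 calls were lost without mouse 23 of the old + vehicle group, when 0 members were called. With the summed level of neutrophil, monocyte or osteoblast markers as a covariate, checks added after the data were examined, 0 members were called higher, and the median was -0.046 with neutrophils and -0.0899 with monocytes. Called lower were Rsad2 with neutrophils (-0.78) and with monocytes (-0.80), and Mx1 with monocytes (-0.54). Over all genes the share called in either direction rose to 14.7% with neutrophils and 15% with monocytes, and was 8.45% with osteoblasts. Oas1a, Oas2 and Zbp1 were at 0.36, 0.37 and 0.35 with the neutrophil sum and at 0.28, 0.29 and 0.26 with the monocyte sum. With the osteoblast sum Oas1a was at 0.57 in place of 0.65 (adjusted p = 0.0557), Oas2 at 0.53 in place of 0.70 and Zbp1 at 0.50 in place of 0.61, by edgeR, so that these folds lost the call but not their direction. Markers of several cell types were called lower in the same comparison, among them 5 of 6 of B cells (median log2 fold change -1.02), 4 of 4 of megakaryocytes (-1.03), 3 of 7 of erythroid cells (-0.82) and 3 of 7 of osteoblasts (-0.48). Called higher were 2 of 6 of osteocytes and 1 each of monocytes, adipocytes and skeletal muscle, whereas 1 each of osteocytes and adipocytes was called lower. All 10 markers of neutrophils (median 0.33) and all 7 of T cells (0.56) were above 0, without a call. The part of the B cells, megakaryocytes, erythroid cells, osteocytes, adipocytes and skeletal muscle in the differences was not tested.

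In old + AP against young mice, 10 of the 34 members were called and all 10 were higher: Oas1a, Oas2, Oas3, Oasl1, Oasl2, Zbp1, Ifit1, Usp18, Ifi27l2a and Rtp4. Over all genes, 8.58% were called in either direction and 3.73% were called higher. The median log2 fold change of the members was 0.32 against 0.017 over all genes, and 33 of 34 were above 0, as were 10207 of the 19292 genes. With no filter on low counts Oas3 (adjusted p = 0.0625) and Usp18 (adjusted p = 0.0604) were not called by edgeR. Without the fold-change threshold 14 members passed, adding Ifih1, Ifit2, Ifit3 and Ifi44, against 9.15% of all genes higher on the same rule.

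Between old + AP and old + vehicle mice, 0 of the 34 members were called by edgeR, and 0 by DESeq2. Over all genes 0.0726% (14 genes) were called by edgeR, and 204 genes by DESeq2. The edgeR count over all genes moved from 0 to 405 when 1 mouse was left out, with 405 without mouse 9 and 312 without mouse 2. At an unadjusted p below 0.05, 11 members were higher and 0 were lower, while 14.6% of all genes were higher and 9.36% were lower. The members had a median log2 fold change of 0.29 against -0.0037 over all genes, and 32 of 34 members were above 0, whereas 9531 of the 19292 genes were. Markers of several cell types lay to one side of 0 between the same groups, although 0 markers of any list were called by edgeR. Above 0 were all 7 T cell markers (median log2 fold change 0.48), all 4 of megakaryocytes (0.49), all 6 of B cells (0.40), all 4 of monocytes (0.30), all 10 of neutrophils (0.20) and 6 of 7 of erythroid cells (0.45), and below 0 were all 7 of skeletal muscle (-0.57), all 7 of osteoblasts (-0.23) and 7 of 8 of osteoclasts (-0.35). At an unadjusted p below 0.05, 2 markers each of B cells, erythroid cells and megakaryocytes and 1 each of T cells and macrophages were higher, and 2 each of skeletal muscle and osteoclasts and 1 of plasmacytoid dendritic cells were lower. The part of these cell types was not tested beyond the marker covariates. Largest among the members were Rsad2 at 0.68 (SE 0.27, adjusted p = 0.13), Usp18 at 0.53 (SE 0.20, adjusted p = 0.106) and Isg15 at 0.47 (SE 0.24, adjusted p = 0.219), all by edgeR. In bulk bone, more RNA of a gene per cell and more cells that express it cannot be told apart.

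**Figure D1:**
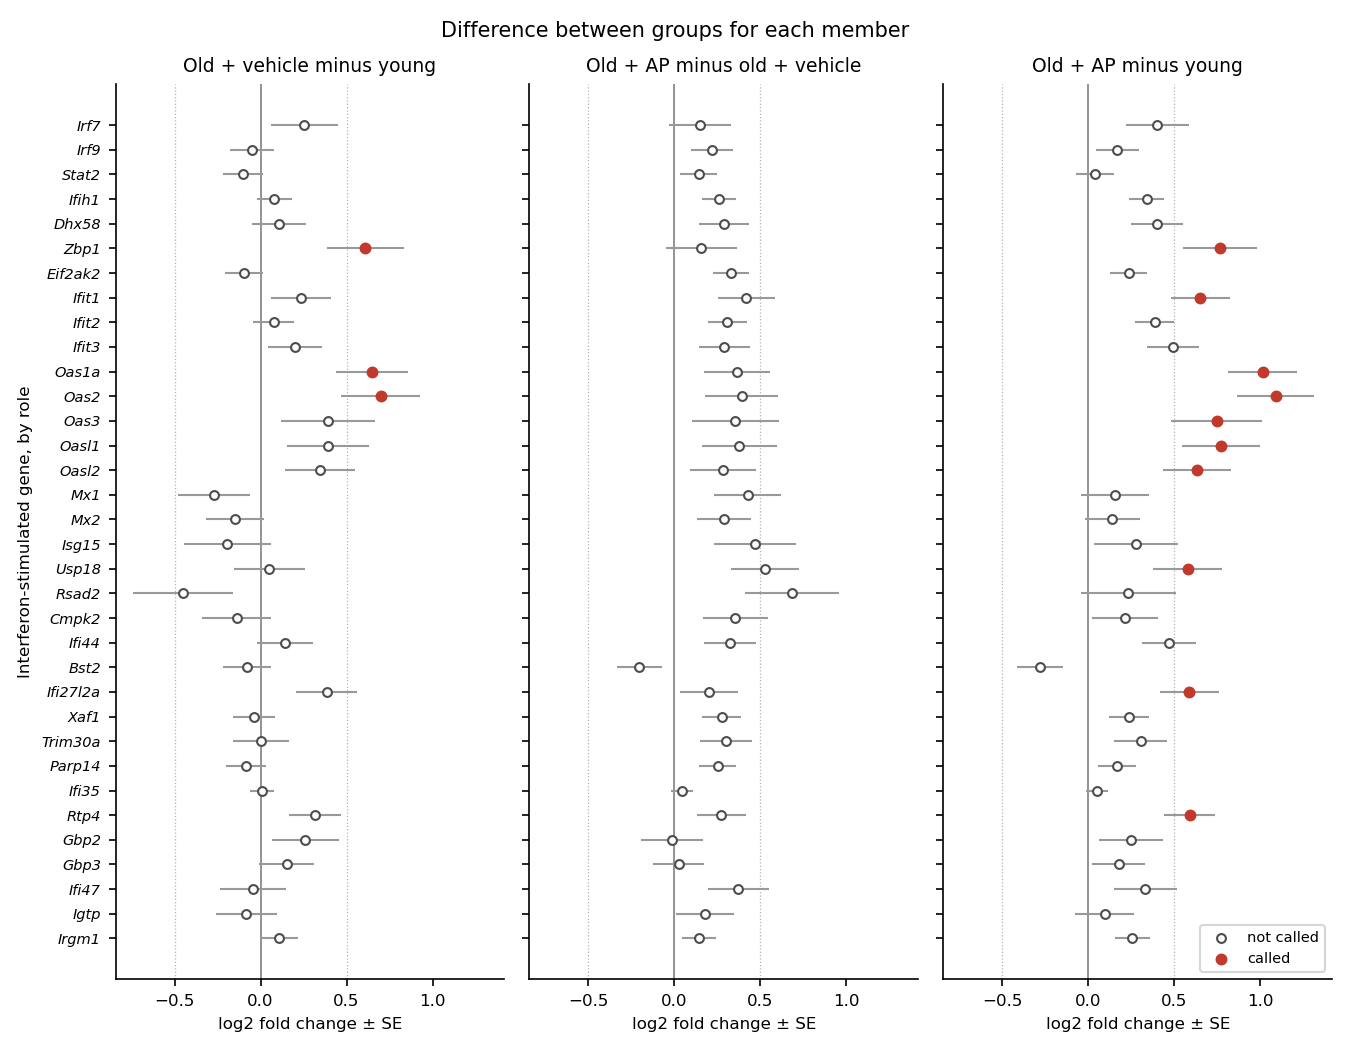
Log2 fold change (x axis) of each of the 34 members (y axis, by role) in the 3 comparisons; bars are the standard error of the edgeR fit, red points are called members and dotted lines mark 0.5 in either direction. Called members number 3, 0 and 10 from left to right, and all lie to the right of 0.

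The count in old + AP against young mice changed when mice 18 and 19 were left out and when cell type markers were added to the model. By mean z-score over the 34 members, mice 18 and 19 were the highest of all mice, at 1.77 and 1.96. They held the highest value of their group for 11 and 18 members. A lower median without them was therefore built into that check, and the lower count cannot be separated from it. With both mice left out, a check added after the data had been seen, Oas1a, Oas2 and Ifit1 remained called in old + AP against young mice, the count fell to 3 and the median to 0.14, and over all genes 6.85% (1315 of 19185) were called in either direction. The 7 members that lost their call had log2 fold changes between 0.33 (Usp18) and 0.60 (Oasl1), with Zbp1 at 0.54, Oas3 at 0.52, Oasl2 at 0.49 and Ifi27l2a at 0.45. Rtp4, at 0.49, still had an adjusted p of 0.0214 (edgeR) and missed the fold-change threshold. In this comparison markers of other cell types also differed. Of the 10 neutrophil markers 3 were called higher and all 10 were above 0 (median log2 fold change 0.52), of the 4 monocyte markers 2 were called higher, of the 7 T cell markers 4 were called higher, and of the 7 osteoblast markers 5 were called lower. With the summed neutrophil level as a covariate, Oas1a and Oas2 remained called, the count was 2 and the median was 0.10, whereas 8.87% of all genes (1711 of 19292) were called. The count was also 2 with the monocyte sum (median 0.059), and it was 5 with the T cell sum (median 0.16), with 1574 and 1511 of the 19292 genes called. Of the 5 calls lost with the T cell sum, Rtp4 (0.496, adjusted p = 0.00884), Oasl2 (0.498, adjusted p = 0.0458) and Ifi27l2a (0.46, adjusted p = 0.0362) still passed on the adjusted p by edgeR and lay under the fold-change threshold of 0.5. Oas3 and Usp18 were at 0.53 and 0.36. With the neutrophil sum the 8 lost members lay between 0.16 (Oas3) and 0.45 (Ifit1), where Ifit1 (adjusted p = 0.0471) and Rtp4 (0.41, adjusted p = 0.0346) still passed on the adjusted p by edgeR and missed the fold-change threshold. With the monocyte sum the 8 lost members lay between 0.11 (Oas3) and 0.36 (Rtp4). With the osteoblast sum the count was 2 and the median 0.23, and the calls over all genes fell from 1655 to 841, or 4.36%. The 8 members whose calls were lost there had log2 fold changes between 0.39 (Usp18, 0.58 without the covariate) and 0.62 (Oasl1, 0.77 without it). Ifi27l2a was at 0.56 in place of 0.59, Rtp4 at 0.51 in place of 0.59, Oasl2 at 0.52 in place of 0.63 and Zbp1 at 0.53 in place of 0.77. Against old + vehicle mice the median of the members under these 4 covariates lay between 0.18 and 0.27, and without mice 18 and 19 it was 0.16 in place of 0.29, with 0 members called in each of these fits. These covariates were also added after the data had been seen, and the part of the cell types in the differences was not tested beyond them.

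The OAS family, enzymes that sense double-stranded RNA and in most members make the second messenger that activates RNase L, lies on chromosome 5, with Oas2, Oas3 and Oas1a within chr5:120730333-120907521 and the Oasl genes within chr5:114896936-114937915 in the GRCm38 coordinates of the count table. All 5 were called higher in old + AP over young mice, with log2 fold changes from 0.63 to 1.09, where 3.73% of all genes were called higher. Oas3, Oasl1 and Oasl2 lost this call without mice 18 and 19 and with the neutrophil, monocyte or osteoblast sum as a covariate. Oas1a is a catalytically active member. Its level was 6.02 CPM at lowest, 9.61 CPM at the median and 12.9 CPM at highest in young mice, 6.01, 15.3 and 27 CPM in old + vehicle mice, and 11.8, 15.9 and 38.3 CPM in old + AP mice. Of the 16 old + AP mice 15 were above the highest young mouse, as were 8 of the 13 old + vehicle mice, and the lowest old + vehicle mouse was level with the lowest young mouse. The log2 fold change over young was 0.65 (SE 0.21, adjusted p = 0.0236) in old + vehicle and 1.01 (SE 0.20, adjusted p = 0.000538) in old + AP mice, by edgeR. Without mouse 23 the first of these was 0.54 and was not called (adjusted p = 0.0585, edgeR).

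Oas2, a larger enzyme of the family, ran from 11.5 through a median of 19.1 to 28.3 CPM in young mice, from 13.8 through 23.6 to 59.2 CPM in old + vehicle mice and from 24 through 38.9 to 89.4 CPM in old + AP mice. All 16 old + AP mice were above the median of both other groups. The log2 fold change over young was 0.70 (SE 0.23, adjusted p = 0.0268) in old + vehicle and 1.09 (SE 0.22, adjusted p = 0.000737) in old + AP mice, by edgeR, and 0.39 (SE 0.21, adjusted p = 0.254) between the old groups. Without mouse 2, 13 or 23, each an old + vehicle mouse with a high level, Oas2 was not called in old + vehicle against young mice.

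Oas3, the largest of the OAS enzymes, had medians of 29, 33.5 and 35.3 CPM in young, old + vehicle and old + AP mice. Its range was 17.2 to 38.7 CPM in young, 9.74 to 79.0 CPM in old + vehicle and 20.0 to 112 CPM in old + AP mice, so that the lowest old + vehicle mice were below all young mice. The log2 fold change in old + AP over young mice was 0.75 (SE 0.26, adjusted p = 0.0429, edgeR), and it was called in 26 of the 41 fits that left out 1 mouse. Without mouse 19 it was 0.58 and not called (adjusted p = 0.107, edgeR).

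Oasl1 and Oasl2 are OAS-like proteins with ubiquitin-like domains. Oasl1 ranged from 2.22 to 6.36 CPM (median 4.35) in young, from 1.68 to 10.1 CPM (median 5.03) in old + vehicle and from 3.81 to 15.5 CPM (median 6.11) in old + AP mice, and its log2 fold change in old + AP over young was 0.77 (SE 0.23, adjusted p = 0.0159, edgeR). Oasl2 ranged from 27.3 to 47.1 CPM (median 35.4), from 20.7 to 85.6 CPM (median 37.8) and from 27.9 to 113 CPM (median 46.1) in the same order. Its log2 fold change in old + AP over young was 0.63 (SE 0.20, adjusted p = 0.0234, edgeR) and was not called without mouse 19. The groups overlapped for both genes. Oas1a has a near-identical neighbour, Oas1g, so that its reads could have been split between them.

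Of the 4 nucleic acid sensors, Zbp1, a sensor of left-handed Z-form nucleic acid that can start inflammatory cell death, was called in both comparisons with young mice. It ranged from 7.51 to 14.3 CPM (median 10.4) in young, from 6.34 to 41.9 CPM (median 14.1) in old + vehicle and from 10.7 to 39.9 CPM (median 14.3) in old + AP mice. The medians of the old groups were close, and the highest values were those of mouse 23 (old + vehicle) and mouse 18 (old + AP). The log2 fold change was 0.61 (SE 0.22, adjusted p = 0.0494) for old + vehicle and 0.77 (SE 0.21, adjusted p = 0.0115) for old + AP over young mice, by edgeR. The first was called in 13 of the 41 fits that left out 1 mouse, and fell to 0.39 without mouse 23. Ifih1 (MDA5) and Dhx58 (LGP2), which detect long viral RNA or regulate that detection, and Eif2ak2 (PKR), a kinase that halts translation, had log2 fold changes of 0.34, 0.40 and 0.23 in old + AP over young mice and were not called.

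**Figure D2:**
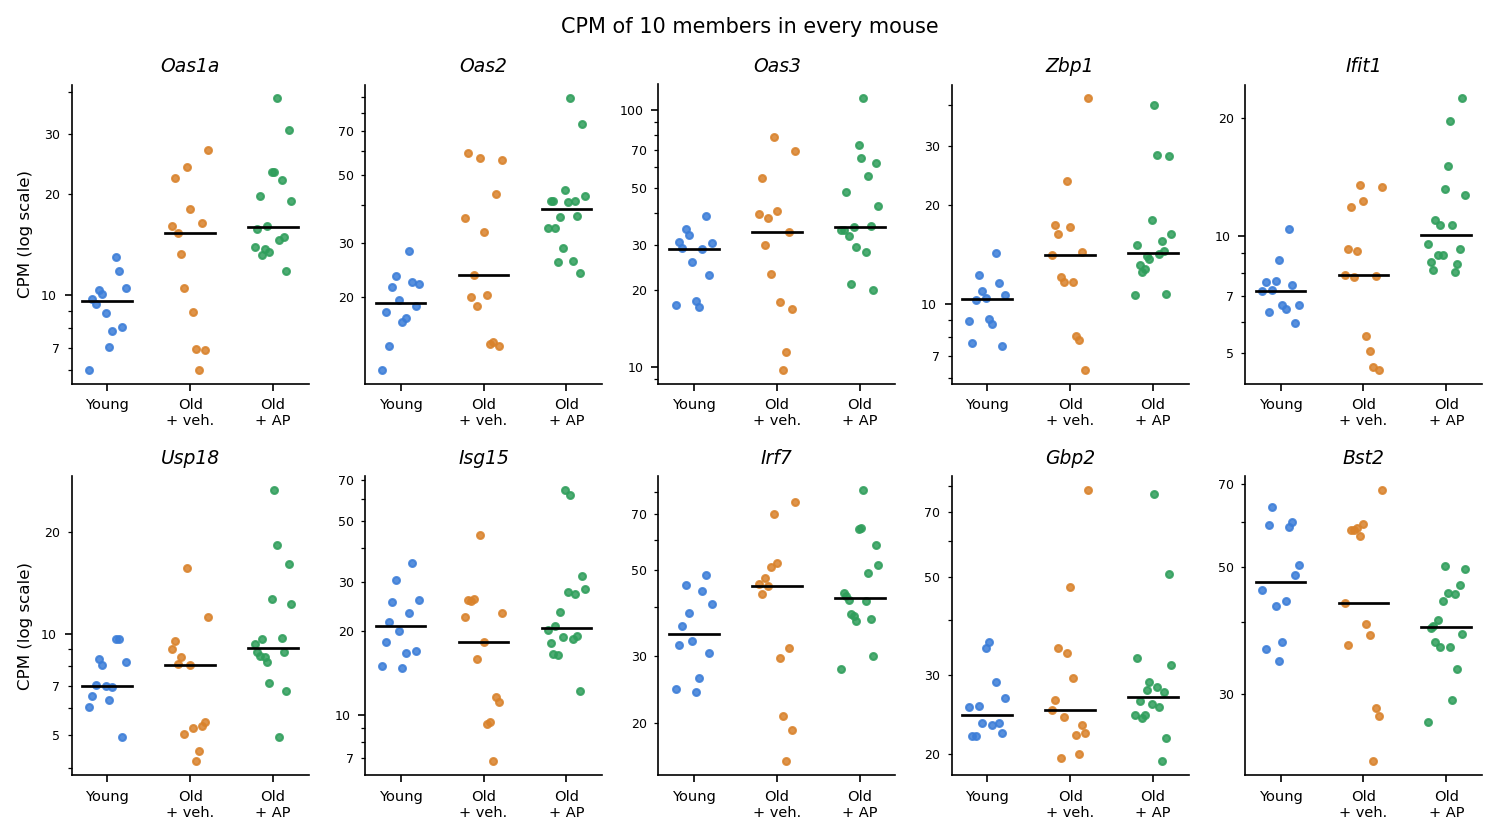
CPM on a log axis (y) of 10 members in every mouse of the 3 groups (x); each point is 1 mouse and each line is the group median. For Oas1a 15 of the 16 old + AP mice lie above the highest young mouse, whereas for Gbp2 the group medians are 24.5, 25.1 and 26.9 CPM.

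The IFIT proteins bind viral RNA that lacks the marks of host mRNA, and their 3 genes lie within chr19:34550694-34650009. Ifit1 ranged from 5.99 to 10.4 CPM (median 7.22) in young, from 4.53 to 13.5 CPM (median 7.94) in old + vehicle and from 8.05 to 22.5 CPM (median 10.1) in old + AP mice, and every old + AP mouse was above the median of each other group. Its log2 fold change in old + AP mice was 0.65 over young (SE 0.17, adjusted p = 0.00665) and 0.42 over old + vehicle mice (SE 0.17, adjusted p = 0.125), by edgeR. Ifit3 had medians of 12.9, 13.8 and 17.9 CPM in young, old + vehicle and old + AP mice and ranges of 11.1 to 19, 8.85 to 24.2 and 12.5 to 29.3 CPM, which overlapped. Its log2 fold change in old + AP over young was 0.49 (SE 0.15, adjusted p = 0.0204, edgeR), just inside the fold-change threshold, so that it was not called. Ifit3 has a near-identical copy, Ifit3b, and its counts are uncertain to that extent. Ifit2 was at 0.39 (SE 0.11, adjusted p = 0.0159, edgeR) and not called.

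ISG15 is a ubiquitin-like modifier, and USP18 is the protease that removes it and also blocks the type I interferon receptor. Isg15 ranged from 14.8 to 35.2 CPM (median 20.9) in young, from 6.80 to 44.3 CPM (median 18.3) in old + vehicle and from 12.2 to 64.7 CPM (median 20.5) in old + AP mice. Its group medians were close, and mice 17 and 19 of the old + AP group, at 64.7 and 62.0 CPM, stood above all others. Its log2 fold changes were -0.19 (SE 0.25), 0.47 (SE 0.24) and 0.28 (SE 0.24) in old + vehicle over young, old + AP over old + vehicle and old + AP over young mice, and none was called. Without mouse 17 the second of these was 0.30 and the third 0.11, and without mouse 13 the first was -0.36. Usp18 had medians of 7.01, 8.05 and 9.08 CPM in young, old + vehicle and old + AP mice and ranges of 4.94 to 9.66, 4.18 to 15.6 and 4.95 to 26.7 CPM. It was called in old + AP over young mice at 0.58 (SE 0.20, adjusted p = 0.0403, edgeR), in 28 of the 41 fits that left out 1 mouse. Without mouse 18 it was 0.42 and not called.

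The 3 transcription factors of the response were not called by edgeR in any comparison, and 1 of them, Irf7, was higher at an unadjusted p below 0.05, in old + AP over young mice, where 17.4% of all genes were higher by that rule. Irf7, which amplifies type I interferon production, ranged from 24.1 to 48.7 CPM (median 34.2) in young, from 15.9 to 75.2 CPM (median 45.5) in old + vehicle and from 27.7 to 81.0 CPM (median 42.4) in old + AP mice. The old + vehicle mice spanned both ends of the range of the young mice. Its log2 fold changes over young were 0.26 (SE 0.19) and 0.40 (SE 0.18, adjusted p = 0.126, edgeR) in the old + vehicle and the old + AP group. The first of these Irf7 values was 0.16 without mouse 23. Stat2 ranged from 44.2 to 66.5 CPM (median 54.7), from 35 to 80.1 CPM (median 51.0) and from 43.5 to 84.1 CPM (median 56.2) in young, old + vehicle and old + AP mice, and its log2 fold changes were -0.10 (SE 0.11), 0.14 (SE 0.11) and 0.039 (SE 0.11) in the order given for Isg15. Irf9 was at 0.17 in old + AP over young mice, and at 0.088 without mouse 19.

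Of the 10 remaining antiviral genes, 2 were called, both in old + AP over young mice, where 3.73% of all genes were called higher. Both calls were lost without mice 18 and 19 and under each marker covariate, with both genes still above 0. Rtp4, a chaperone of membrane receptors with antiviral activity, ranged from 10.2 to 16.1 CPM (median 11.9) in young, from 8.82 to 26.4 CPM (median 15.1) in old + vehicle and from 13.3 to 30.1 CPM (median 18.2) in old + AP mice. All 16 old + AP mice were above the young median, and its log2 fold change was 0.59 (SE 0.15, adjusted p = 0.00484, edgeR). Ifi27l2a, an interferon-induced mitochondrial protein, ranged from 17.6 to 30.6 CPM (median 24.7), from 12.7 to 51.8 CPM (median 29.4) and from 18.2 to 56.4 CPM (median 32.8) in the same order, with a log2 fold change of 0.59 (SE 0.17, adjusted p = 0.0154, edgeR). It lies beside the related gene Ifi27l2b. The range of Bst2 was 34.2 to 63.7 CPM (median 47.0) in young, 22.8 to 68.4 CPM (median 43.3) in old + vehicle and 26.8 to 50.2 CPM (median 39.2) in old + AP mice. It was the one member below 0 in old + AP against young mice, at -0.28 (SE 0.13, adjusted p = 0.135, edgeR), and 2 of the 16 old + AP mice were above the young median. Rsad2 (viperin), which makes a chain-terminating nucleotide, and its neighbour Cmpk2 had log2 fold changes of -0.45 and -0.14 in old + vehicle over young and 0.68 and 0.35 in old + AP over old + vehicle mice, none called. Mx1 followed the same signs, at -0.27 and 0.43, and Mx2 at -0.15 and 0.29. With the neutrophil or monocyte sum as a covariate Rsad2 was called lower in old + vehicle against young mice, at -0.78 and -0.80. The Cmpk2 values were -0.062 without mouse 16 and 0.22 without mouse 19. Ifi44, Xaf1, Trim30a, Parp14 and Ifi35 lay between 0.051 and 0.47 in old + AP over young mice, without a call.

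The GTPases of cell-autonomous immunity, genes with a strong response to interferon-gamma, were not called by edgeR in any comparison. At an unadjusted p below 0.05, Ifi47 was higher between the old groups and Irgm1 in old + AP over young mice. Gbp2, a guanylate-binding protein, ranged from 21.9 to 35.7 CPM (median 24.5) in young, from 19.6 to 78.5 CPM (median 25.1) in old + vehicle and from 19.2 to 76.7 CPM (median 26.9) in old + AP mice, with log2 fold changes of 0.26 (SE 0.20), -0.013 (SE 0.18) and 0.25 (SE 0.19) in the order given for Isg15. Without mouse 23 the first of these Gbp2 values was 0.067, and without mouse 18 the last was 0.089. Irgm1, an immunity-related GTPase, ranged from 34.8 to 45.3 CPM (median 40.9), from 34.4 to 71.6 CPM (median 42.2) and from 37 to 79.2 CPM (median 45.6) in young, old + vehicle and old + AP mice, with log2 fold changes of 0.11 (SE 0.11), 0.14 (SE 0.099) and 0.25 (SE 0.10). Without mouse 23 the first of these Irgm1 values was 0.028, and without mouse 18 the second was 0.069. The medians of both genes were close across groups, and single mice were far above them. Gbp3, Ifi47 and Igtp were at 0.18, 0.33 and 0.095 in old + AP over young mice.

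Within each group many members were high or low in the same mice. As a description, a mean z-score over the 34 members was taken for each mouse. It ran from -0.92 to 0.46 in young, from -1.86 to 1.35 in old + vehicle and from -0.55 to 1.96 in old + AP mice, so that the groups overlapped widely. In the old + AP group, mouse 19 was the highest of the group for 18 members and among the 3 highest for 31, against 19.2% and 34.3% of all genes. Mouse 18 was among the 3 highest for 25 members (27.8% of all genes) and mouse 28 for 26 (13.4% of all genes). In the old + vehicle group, mice 13 and 23 were each among the 3 highest for 29 members (16.3% and 19.5% of all genes), and mice 16, 20 and 22 were among the 3 lowest for 30, 30 and 24 members (30.5%, 31.3% and 25.7% of all genes). In young mice, mouse 38 was among the 3 highest for 27 members (23% of all genes).

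**Figure D3:**
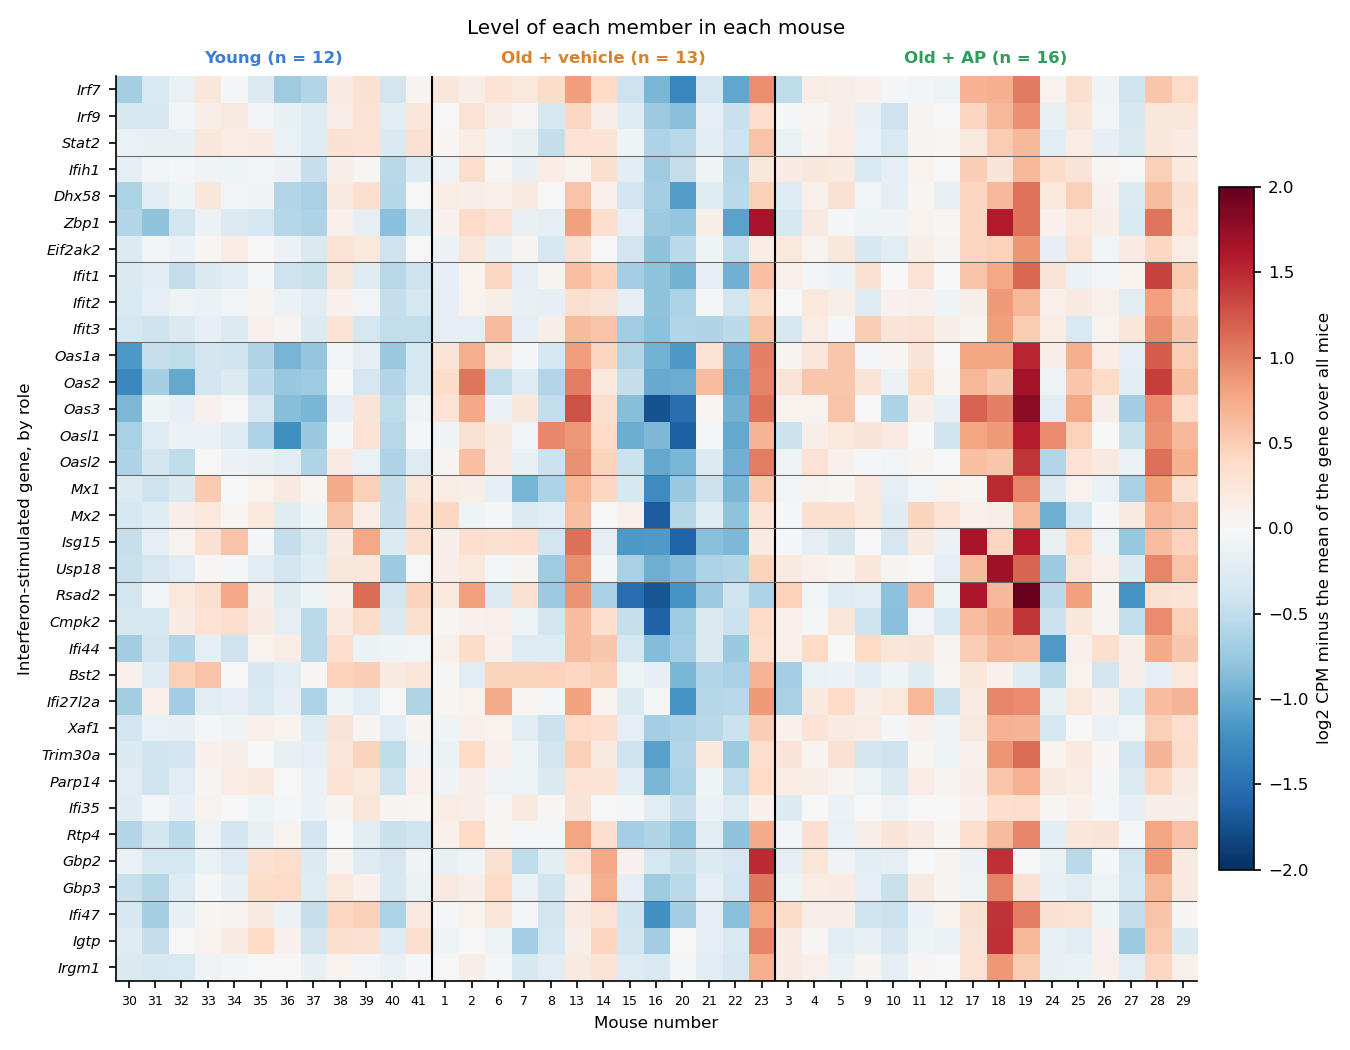
Level of the 34 members (rows, by role) in the 41 mice (columns, by group), as log2 CPM minus the mean of the gene over all mice; red is above and blue is below that mean. Columns 13 and 23 (old + vehicle) and 18, 19 and 28 (old + AP) are red over most rows, and columns 16, 20 and 22 (old + vehicle) are blue.

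The spread between mice was widest in the old + vehicle group. The median SD of log2 CPM over members was 0.28 in young, 0.54 in old + vehicle and 0.43 in old + AP mice, whereas over all genes tested it was 0.29, 0.36 and 0.38. The SD was highest in the old + vehicle group for 30 of 34 members and in the old + AP group for 4, whereas over all genes these shares were 40.6% and 43.4%. The largest single SDs were those of Oas3 at 0.94 and Rsad2 and Oas2 at 0.82 and 0.80 in old + vehicle mice.

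**Figure D4:**
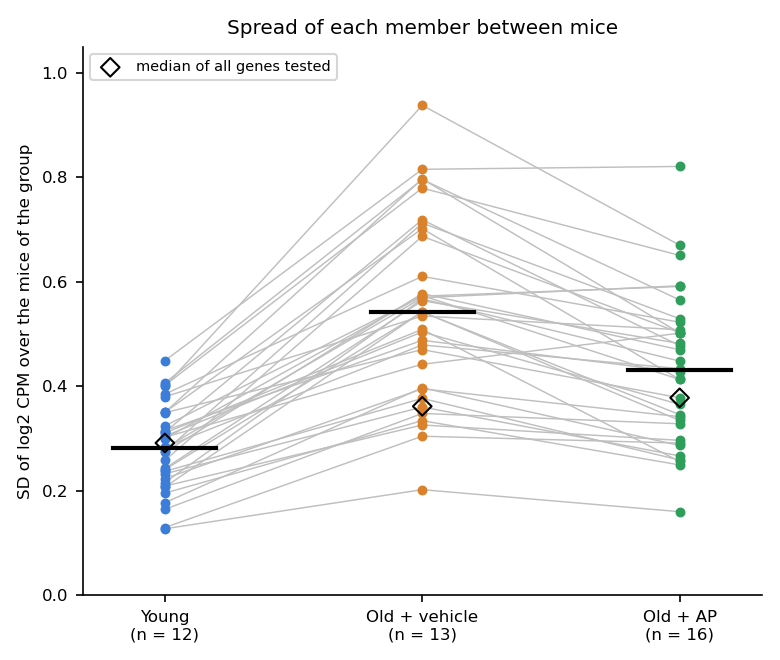
SD of log2 CPM between the mice of each group (y axis) for the 34 members, with 1 point per member, grey lines joining the same member, black bars at the median of the members and diamonds at the median of all genes tested. The member medians are 0.28, 0.54 and 0.43, and the diamonds are at 0.29, 0.36 and 0.38.

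The mice with the highest levels of the GTPases were in part other mice than those with the highest levels of the remaining members, a pattern picked out after the values were seen. All 5 (Gbp2, Gbp3, Ifi47, Igtp and Irgm1) were highest in mouse 23 of the old + vehicle group and in mouse 18 of the old + AP group. These mice were the highest of their group for 6.05% and 7.62% of all genes, and mice 13 and 19 for 4.20% and 19.2%. The other 29 members were highest in mouse 13 for 16 and in mouse 23 for 10 in the former group, and in mouse 19 for 18 and in mouse 18 for 6 in the latter. The young group did not show this, as its GTPases were highest in mouse 36 for 2 and in mice 35, 38 and 39 for 1 each, and its T cell sum in mouse 41. Ifng, the gene of interferon-gamma, was also at its highest in mouse 23 (1.07 CPM, next highest 0.443 CPM) and mouse 18 (1.43 CPM, next highest 0.401 CPM) of these groups, as were the summed T cell markers, at 112 and 534 CPM, and the summed NK cell markers, at 18.4 and 32.2 CPM. The pattern rests on 1 mouse in each old group, and a relation between these levels was not tested.

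The mice with high members also had other marker levels at the ends of their group. Mouse 19 had the highest sums of neutrophil (34405 CPM) and monocyte (2774 CPM) markers of all mice, and mouse 16, with the lowest mean z-score, had the lowest (4931 and 572 CPM). Mice 18 and 19 had osteoblast sums of 5952 and 5123 CPM, against a median of 15150 CPM in the old + AP group. Mouse 28, with a mean z-score of 1.43, had an osteoblast sum of 5026 CPM, and mouse 24 had the lowest at 3069 CPM with a mean z-score of -0.29. Skeletal muscle sums were 12606 and 5917 CPM in mice 18 and 19 and 73720, 89095 and 74873 CPM in mice 16, 20 and 22, which had low mean z-scores, whereas mouse 23, with a high one, was at 75524 CPM. Mice 13 and 28 had neutrophil sums of 17616 and 15790 CPM, near the medians of their groups at 15245 and 15880 CPM, and mouse 21 combined a monocyte sum of 2371 CPM with a mean z-score of -0.52. Plasmacytoid dendritic cells, known as strong producers of type I interferon, had 3 of 5 markers called lower in old + vehicle against young mice (Siglech, Ccr9 and Klk1) and 0 of 5 called by edgeR in the other comparisons, where 1 (old + AP against old + vehicle) and 3 (old + AP against young) were lower at an unadjusted p below 0.05, against 9.36% and 14.9% of all genes. Between the old groups 3 of the 5 were above 0, with a median log2 fold change of 0.35. The summed level of this list was set mostly by Cox6a2, which skeletal muscle also expresses, and its group ranges were 216 to 1198, 214 to 776 and 97.5 to 802 CPM.

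**Figure D5:**
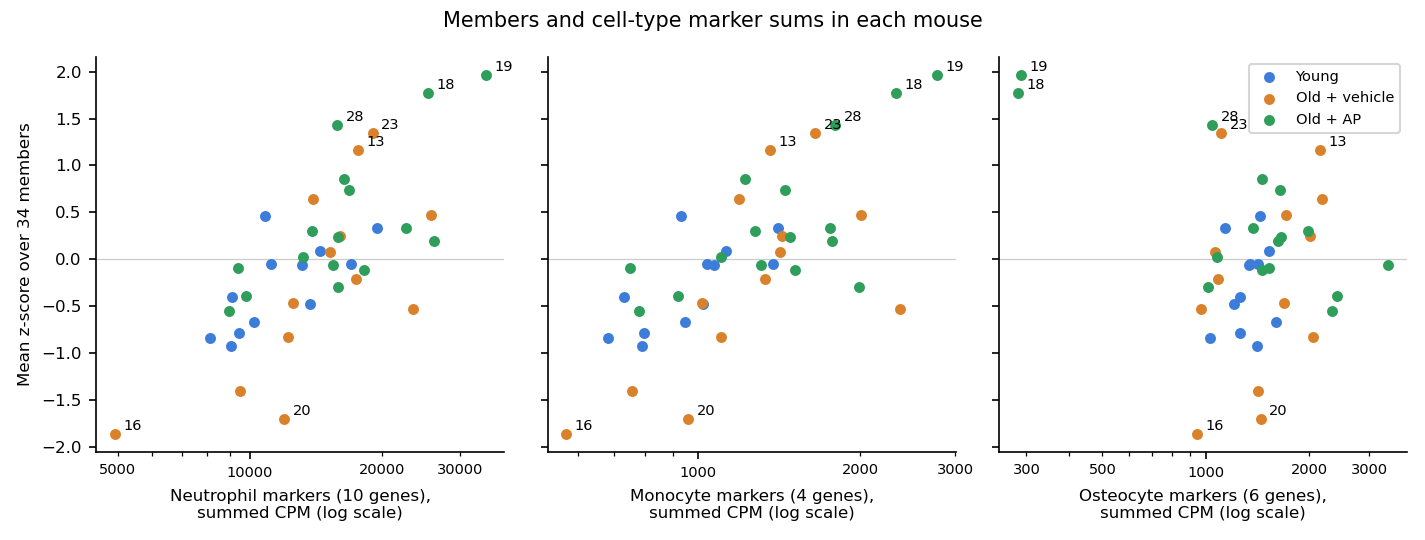
Mean z-score over the 34 members (y axis) against the summed CPM, on log axes (x), of neutrophil, monocyte and osteocyte markers, with 1 point per mouse and the mouse number beside 7 of them. Mice 18 and 19 lie at the upper left of the osteocyte panel, with sums of 283 and 289 CPM, and mouse 16 at the lower left of the neutrophil panel, at 4931 CPM.

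Ligands were barely detected. Of 21 interferon genes, 12 had no count in any of the 41 mice. Ifnb1 had 4 counts in 3 mice, Ifna2 and Ifna9 had 2 counts each in 1 mouse, Ifna13 and Ifnl3 had 1 count each, Ifnk had 2 counts, Ifnab had 30 counts in 14 mice and Ifnz had 26 counts in 13 mice. Ifng had 581 counts in 39 mice and was the one ligand with enough counts to be tested. Its log2 fold change was 0.54 (adjusted p = 0.45) in old + vehicle and 0.67 (adjusted p = 0.3) in old + AP over young mice, by edgeR. At this depth differences in type I and III ligands were not detectable.

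Among the 6 receptor genes, Ifnlr1, the specific chain of the type III receptor, was the one called, at 0.60 (SE 0.18, adjusted p = 0.0157, edgeR) in old + AP over young mice, with medians of 14.4 and 21.1 CPM. Among 10 JAK, STAT and IRF genes 0 were called by edgeR in any comparison, and at an unadjusted p below 0.05 there were 2 higher and 3 lower in old + vehicle against young, 2 higher between the old groups and 3 higher and 1 lower in old + AP against young mice. Over all genes the shares by this rule were 16% higher and 15.9% lower in old + vehicle against young, 14.6% higher and 9.36% lower between the old groups and 17.4% higher and 14.9% lower in old + AP against young mice. Irf1, the early factor of the interferon-gamma response, had log2 fold changes of 0.092, 0.071 and 0.16 in the order given for Isg15. Of 7 inhibitors, Socs3, which blocks JAK kinases downstream of cytokines of the interleukin-6 type, was called higher in both old groups over young mice, at 0.92 (SE 0.20, adjusted p = 0.00114, edgeR) and 0.74 (SE 0.19, adjusted p = 0.00661, edgeR). Of 14 measured genes of nucleic acid sensing upstream of interferon, 0 were called by edgeR in any comparison, and at an unadjusted p below 0.05 there was 1 higher in old + vehicle over young, 5 higher and 1 lower between the old groups and 8 higher in old + AP over young mice, beside the same 16%, 14.6% and 17.4% of all genes higher.

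Of 57 other interferon-induced genes in the table, 56 were tested, and 7 were called higher and 1 lower in old + AP against young mice, where 3.73% of all genes were called higher and 4.85% lower. The largest increases were those of Ifit1bl1 at 1.95 (SE 0.52, adjusted p = 0.00808), Oas1g at 1.5 (SE 0.30, adjusted p = 0.00056) and Ifit1bl2 at 0.61 (SE 0.19, adjusted p = 0.0258), and the decrease was that of Gbp8 at -0.72 (SE 0.23, adjusted p = 0.027), by edgeR. Ifit1bl1 reached 36.8 CPM in mouse 24, against a group median of 2.80 CPM. In old + vehicle against young mice, Oas1g was called higher at 1.10 (SE 0.31, adjusted p = 0.00953, edgeR) and Gbp8 lower at -0.69 (SE 0.25, adjusted p = 0.0401, edgeR). Between the old groups 0 of the 56 were called by edgeR, 21 were higher and 0 lower at an unadjusted p below 0.05 (14.6% and 9.36% of all genes), and the median log2 fold change was 0.21. The 17 genes of MHC class I and the immunoproteasome, which present antigen and respond to interferon, had 0 calls by edgeR in every comparison, and at an unadjusted p below 0.05, 3 were higher in old + vehicle over young, 0 between the old groups and 3 in old + AP over young mice, to be read against the shares of all genes given above. Their median log2 fold change was 0.17 in old + vehicle against young, -0.037 in old + AP against old + vehicle and 0.12 in old + AP against young mice.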

How the data were processed

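Raw counts per gene, deposited by the authors with 1 column per mouse, were used without change. The submitters' processing notes name TopHat2 2.0.6, HTSeq and the build GRCm38. The annotation release and the strand setting are not given in the sources used here, so that overlapping genes and near-identical copies (Oas1a and Oas1g, Ifit3 and Ifit3b, Trim30a and Trim30d, Gbp2 and Gbp2b, Ifi27l2a and Ifi27l2b) are uncertain. The labels give the molecule as genomic DNA, whereas the study's methods describe RNA. Groups came from the labels. The labels name no batch, and separate mouse numbers do not say whether litters or cages were shared. No 2 mice of a group agreed within sampling noise (chi-square per degree of freedom of at least 31.9).

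Of 43346 genes, 32309 had a count and 19292 passed the filter by expression. In R 4.3.3, edgeR 4.0.16 gave TMM factors and a quasi-likelihood test in 1 model of the 3 groups, with Benjamini-Hochberg adjustment over all genes tested. CPM use TMM-scaled totals (37028959 to 75942717 counts before scaling), and the log2 CPM behind z-scores and SDs used a prior count of 2. A gene was called at an adjusted p below 0.05 and a log2 fold change beyond 0.5. The alternatives were DESeq2 1.42.0, its size factors, no filter, fits of 2 groups, a robust fit, no fold-change threshold and each mouse left out in turn. Scripts were tested on simulated counts.

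The members and the gene lists were chosen with earlier results of these data known. Described in full were all members called in any comparison and Irf7, Stat2, Isg15, Ifit1, Ifit3, Oas2, Usp18, Bst2, Gbp2 and Irgm1. Of the pathway lists, all ligands with a count, Irf1 and the 3 largest increases and decreases among called genes were named, and 1 further gene that the rule names is not reported here. Other named genes were chosen after their values were seen. P-values set the difference between groups against the spread between these mice.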

Additional observations from a re-analysis of the deposited data

How the results depend on the processing

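DESeq2, its size factors, no filter, fits of 2 groups, a robust fit and no fold-change threshold kept each count of called members within 1.5 times its value (3, 0 and 10 for old + vehicle over young, old + AP over old + vehicle and old + AP over young mice), and each median kept its sign. With no filter 2, 0 and 8 members and 6.01%, 0% and 5.52% of all genes were called, without Zbp1 in the first comparison and Oas3 and Usp18 in the last. When 1 mouse was left out in turn, 0 to 3 members were called in old + vehicle over young mice (0 without mouse 23, and 1 without mouse 2 or mouse 13), 0 between the old groups, and 7 to 11 in old + AP over young mice (7 without mouse 19), while 1500 to 1975, 0 to 405 and 1416 to 1936 of all genes were called. The medians then ran from 0.03 to 0.12, from 0.21 to 0.36 and from 0.24 to 0.35 in the order of the 3 comparisons. All members passed the filter on low counts. Too few ligand counts were present to compare groups for all ligands but Ifng, and low depth and lack of expression cannot be told apart there. No paired analysis was possible because the labels give no replicate numbers that the groups share.

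The other settings were added once the data had been examined. Without mice 18 and 19, which had the highest mean z-scores of all mice, 3 members were called in old + AP over young mice (median 0.14). Over all genes 6.85% were called, with fewer mice in the fit. With a marker sum as a covariate, 0 members were called higher in old + vehicle over young mice with neutrophils, monocytes or osteoblasts, and 2 with T cells. The counts in either direction were 1 (neutrophils), 2 (monocytes), 2 (T cells) and 0 (osteoblasts), with 14.7%, 15%, 11.2% and 8.45% of all genes called, the medians were -0.046 (neutrophils) and -0.0899 (monocytes), and Rsad2 was then called lower at -0.78 and -0.80 and, with monocytes, Mx1 at -0.54. In old + AP over young mice the counts were 2 (neutrophils), 2 (monocytes), 2 (osteoblasts) and 5 (T cells), the medians were 0.10, 0.059, 0.23 and 0.16, and 8.87%, 8.16%, 4.36% and 7.83% of all genes were called. The cause was not tested.

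Log2 fold changes that turned sign in these settings belonged to genes that were not called in that comparison. Between old + vehicle and young mice, the neutrophil covariate gave Ifih1 -0.036, Dhx58 -0.048, Ifit2 -0.051, Oas3 -0.041, Usp18 -0.16, Trim30a -0.23 and Ifi35 -0.044. The monocyte covariate gave Ifih1 -0.070, Dhx58 -0.097, Ifit2 -0.096, Oas3 -0.084, Usp18 -0.20, Trim30a -0.30, Ifi35 -0.061 and Gbp3 -0.043. The T cell covariate gave Usp18 -0.085, Trim30a -0.082 and Ifi35 -0.021, and the osteoblast covariate Usp18 -0.032, Bst2 0.043, Trim30a -0.12 and Ifi35 -9.5e-05. With no filter Trim30a was at -0.0031. Between the old groups, Gbp3 was at -0.046, -0.068, -0.0015 and -0.063 with neutrophils, monocytes, T cells and osteoblasts, and without mice 18 and 19 Zbp1 was at -0.066, Ifi35 at -0.012, Gbp3 at -0.088 and Igtp at -0.038. Between old + AP and young mice, the neutrophil covariate gave Irf9 -0.086, Stat2 -0.16, Mx1 -0.17, Mx2 -0.037, Isg15 -0.11, Rsad2 -0.32, Cmpk2 -0.21, Trim30a -0.053, Parp14 -0.046, Ifi35 -0.033, Gbp3 -0.038, Ifi47 -0.065 and Igtp -0.16. The monocyte covariate gave Irf9 -0.13, Stat2 -0.20, Eif2ak2 -0.017, Mx1 -0.26, Mx2 -0.053, Isg15 -0.14, Rsad2 -0.33, Cmpk2 -0.27, Trim30a -0.14, Parp14 -0.10, Ifi35 -0.056, Gbp2 -0.013, Gbp3 -0.11, Ifi47 -0.18 and Igtp -0.24. T cells gave Stat2 -0.060, Mx1 -0.061 and Igtp -0.12, osteoblasts gave Mx1 -0.14 and Igtp -0.22, and without mice 18 and 19 Stat2 was at -0.056, Mx1 at -0.072, Rsad2 at -0.0032, Ifi35 at -0.0043 and Igtp at -0.12.

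With 1 mouse left out, the sign turned in at least 1 fit for Irf9 (-0.097 to 0.00022), Usp18 (-0.078 to 0.11), Xaf1 (-0.10 to 0.0017), Trim30a (-0.053 to 0.063), Ifi35 (-0.016 to 0.040) and Ifi47 (-0.15 to 0.022) in old + vehicle over young mice, for Gbp2 (-0.17 to 0.18) and Gbp3 (-0.071 to 0.14) between the old groups, and for Stat2 (-0.019 to 0.065) and Igtp (-0.070 to 0.14) in old + AP over young mice.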
